A study of Mus musculus with 16 samples.

Results

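Reduced representation bisulfite sequencing (RRBS), in which methylated cytosines stay C and unmethylated ones are read as T, gave a handful of places in the mouse genome a depth far above the rest. The CpGs described here are the autosomal ones outside chromosome 13 with 300 or more reads in each of the 16 files, both strands summed. There were 209 of them, out of 327844 CpGs with 10 or more reads in all 16 files and 1241552 read in any file. They were chosen by depth, so their depth is a description, while their methylation level was not used to choose them. They are compared with the 284341 CpGs that had 10 to 100 reads in all 16 files, called the comparison class below.

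The 8 conditions, each sequenced in 2 replicates, all derive from mouse embryonic stem cells (mESCs) of the line E14, of 129/Ola background, kept in serum with LIF. YP-mESCs were kept for about 14 passages and OP-mESCs for about 70. OP-S33Y #1 and #2 are single clones made in YP-mESCs that overexpress the S33Y mutant of β-catenin, the effector of the Wnt pathway, which escapes degradation, and were then cultured long. The remaining 4 conditions carry a lentiviral short hairpin RNA, either a control (shCtrl) or one against β-catenin (shβcat #1), in mESCs or in embryoid bodies (EBs) at day 8. Embryoid bodies are aggregates in which mESCs differentiate. Below, transduced means with a short hairpin RNA and untransduced means without one. The untransduced set includes the S33Y clones, whatever way their mutant β-catenin was introduced. The study calls its replicates biological, but neither it nor the labels say how far apart they were taken (separate cultures, clones or days), so p-values measure the spread between these libraries. The libraries held 18919219 to 40519010 reads on CpGs, with a median of 22 to 42 reads per autosomal CpG. OP-mESC replicate 2 stood apart with the fewest CpGs (413282), and YP-mESC replicate 2 had no reads on chromosome 13, which is why that chromosome is left out.

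A genome assembly often holds 1 copy of a sequence that cells carry many times. Reads from every copy then pile up on that 1 place, and the level measured there is an average over the copies. Ribosomal RNA genes (rDNA) lie in tandem arrays on several chromosomes, and in a cell some copies are transcribed and others are silenced and methylated. Minor satellite is the short tandem repeat of mouse centromeres. It holds the CENP-B box, the site bound by the centromere protein CENP-B, and it is heavily methylated in most cells.

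The 209 CpGs fell into 10 clusters when neighbours at most 500 bp apart were chained, and coordinates are those of mm9, the build of the files. The largest group was a locus on chromosome 17, at chr17:39980114-39985472, with 154 of the 209 CpGs in 4 clusters of 13, 6, 103 and 32. Gencode vM1 places only the pseudogene AY036118 (39985048 to 39985772, minus strand) across its last cluster. As background, mm9 carries a copy of the 45S rRNA gene at this place. The locus spans 5359 bp with 542 CpGs, of which 368 were read in some file. Clusters of 6 CpGs on chromosome 5 (147072588 to 147072636), of 15 on chromosome 11 (108873012 to 108873243), of 11 on chromosome 16 (11144143 to 11144191) and of 5 on chromosome 17 (36368236 to 36368273) lay elsewhere. The chromosome 5 cluster is inside an annotated miRNA gene, AC113316.1, within an intron of Cdk8, a kinase of the Mediator complex. The chromosome 16 cluster is in an intron of Zc3h7a, 27 bp from mmu-mir-689-2. The other chromosome 11 cluster and that at 36368236 overlap no annotated gene. These annotations name the places in mm9 where the reads were put, not the copies they came from. Whether these clusters share sequence with the rDNA locus was not tested.

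Another cluster of 15 CpGs, at chr11:3093351-3093487, overlaps exon and UTR at the 5′ end of Sfi1 (minus strand, 3031853 to 3093466), which codes for a centrin-binding protein of the centrosome. It also lies in an intron of Drg1. The last cluster had only 3 CpGs, at chr2:98506419-98506661, between the predicted genes Gm10801 and Gm10800, the latter 43 bp away.

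The chromosome 2 sequence is shown because it reads as a tandem repeat, with the member CpGs in capitals (mm9, plus strand, chr2:98506399-98506681).
chr2 cluster: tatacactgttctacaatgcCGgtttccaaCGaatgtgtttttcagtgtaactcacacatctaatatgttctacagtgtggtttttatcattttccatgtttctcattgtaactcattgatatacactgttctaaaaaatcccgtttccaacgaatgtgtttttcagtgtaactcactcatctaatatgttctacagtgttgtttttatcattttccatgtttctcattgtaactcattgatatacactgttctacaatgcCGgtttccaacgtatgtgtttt
A stretch around the cluster, wider than the one shown, was laid against itself at fixed shifts, without gaps. It matched best at a shift of 121 bp, with 58.1% identity, and next at 241 bp, with 51.6%. A base gained or lost puts units out of step, so these values can understate how alike the units are. The member CpGs 98506419 and 98506660 are 241 bp apart, and in the sequence shown the bases around them are nearly the same. A match to the CENP-B box lay on the minus strand at 98506539 to 98506553, between them, and held 0 member CpGs. The names rDNA and satellite rest on background knowledge, since no repeat annotation was used here. In windows of 300 bases centred on the comparison class, 0.170% held such a match on either strand. The window of the chromosome 2 cluster had a GC content of 32.7%, against a median of 65.0% in the comparison class, while the other 9 clusters had 54.3% to 71.3%.

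The pieces on chromosomes 5 and 16 are shown for their density of CpGs (member CpGs in capitals, mm9, plus strand, chr5:147072583-147072641 and chr16:11144138-11144196).
chr5 cluster: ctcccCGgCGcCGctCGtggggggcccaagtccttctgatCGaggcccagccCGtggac
chr16 cluster: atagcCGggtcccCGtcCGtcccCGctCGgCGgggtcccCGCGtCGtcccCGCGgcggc
At these CpGs the assembly itself does not show most of this repetition. The study does not say how reads matching several places were treated. If they were dropped, both sets would hold few CpGs of sequence repeated in mm9, and the shares below would be fixed in part by that. The 31 bases centred on a member CpG occurred once in mm9 for 196 of 209 members (93.8%), and for 97.8% of the comparison class. The exceptions were mainly on chromosome 16, where 8 of 11 windows occurred more than once, 3 times at most.

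Depth differed between the clusters and, for the satellite, between libraries. Averaged over the 16 libraries and the CpGs of a cluster, the chromosome 2 cluster had 64098 reads per CpG. The 4 clusters of the rDNA locus had 3765 to 4784, and the Sfi1 cluster 1154. The 3 chromosome 2 CpGs were unequal, with 172667 reads on average at chr2:98506660 and 9801 and 9827 at the others. The rDNA clusters stood at 101 to 250 times the library's median CpG, and the Sfi1 cluster at 29.6 to 53.7 times. The mean of the chromosome 2 cluster ranged from 939 reads per CpG in OP-mESC replicate 2 to 180243 in YP-mESC replicate 2. Replicates of a group differed as well, with 10511 and 939 in OP-mESCs, 155736 and 22095 in OP-S33Y #1, and 51433 and 180243 in YP-mESCs. The satellite reads were 0.0156% to 2.05% of the autosomal reads of a library, the rDNA locus 1.48% to 4.83%, and all members together 2.42% to 6.18%. Since replicates lie this far apart, no number of copies was read from depth.

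**Figure D1:**
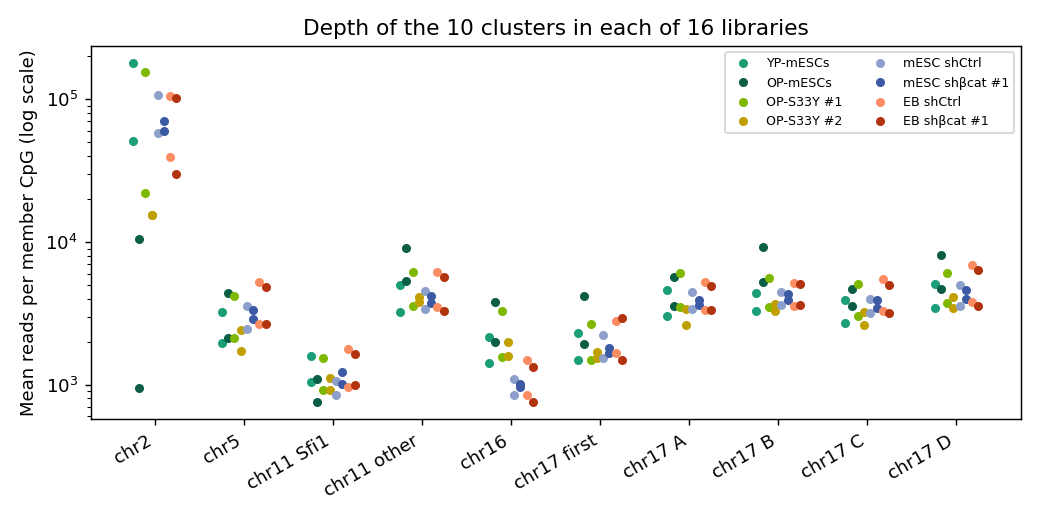
Mean reads per member CpG (log axis) in each of the 10 clusters, from left to right in genome order, with the rDNA clusters as chr17 A to D. Each point is 1 library, coloured by condition. The chr2 cluster spreads from 939 to 180243 reads, while the other clusters stay between 751 and 9239.

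The threshold itself cut through the rDNA locus. The member with the fewest reads, chr17:39981838, had 300 in its lowest library and a mean level of 2.50%, and the next, chr11:108873149, had 311 and 1.44%. Just outside were chr17:39980081 with 291 reads and 9.51%, and chr17:39980074 with 291 reads and 1.25%.

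Levels fell into 3 kinds. Of the 209 CpGs, 182 had a mean level under 5%, 17 lay between 20% and 80%, and 3 lay above 80%. The comparison class was more often methylated, with 55.6% of CpGs under 5%, 15.1% between 20% and 80% and 20.2% above 80%. The mean over the members was below that of the comparison class in 16 of 16 libraries, with differences of -23.5 to -17.0 points (mean -20.9 points, exact sign flips over 16 libraries, p = 3.1e-05, two-sided, the smallest they can give). The p speaks only to how alike the 16 libraries were, since the same fixed sets of CpGs were read in each. It does not test deep CpGs as a kind, and 154 of the 209 members lie at the rDNA locus. The size of the gap depended on which CpGs were averaged. It was -12.4 points outside CCGG, a context that held 18.2% of the members and 35.6% of the comparison class, -12.3 points as a mean over clusters, -6.60 points over clusters chained at up to 2000 bp, and -27.4 points against CpGs with 10 to 50 reads. By libraries, the members ranged from 5.23% to 9.69% and the comparison class from 22.2% to 32.6%.

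The 3 satellite CpGs were high everywhere. Their mean was 90.5% ± 0.22 (SD, n = 2) in YP-mESCs, 88.0% ± 1.4 (SD, n = 2) in OP-mESCs, 90.6% ± 0.26 (SD, n = 2) in OP-S33Y #1 and 91.4% ± 0.49 (SD, n = 2) in OP-S33Y #2. In the transduced cells it was 91.5% ± 0.20 (SD, n = 2) in shCtrl mESCs, 93.5% ± 0.061 (SD, n = 2) in shβcat #1 mESCs, 89.8% ± 0.64 (SD, n = 2) in shCtrl EBs and 86.6% ± 0.095 (SD, n = 2) in shβcat #1 EBs. Both libraries of shβcat #1 mESCs lay above all others and both of shβcat #1 EBs below all others. The replicates of OP-mESCs were the farthest apart, at 89.0% and 86.9%, and the second of them came close to the EBs. The conditions differed in an exact permutation test over all ways to pair the 16 libraries (p = 7.4e-06), within the 8 transduced libraries (exact permutation p = 0.0095) and within the 8 untransduced ones (exact permutation p = 0.019). In these tests the smallest possible p is 4.9e-07 over 16 libraries and 0.0095 over 8.

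The Sfi1 cluster was intermediate in level and moved most, by 30.9 points from the lowest to the highest condition. Its mean was 34.2% ± 0.49 (SD, n = 2) in YP-mESCs and 43.6% ± 0.76 (SD, n = 2) in OP-mESCs. The clones had 50.1% ± 0.34 (SD, n = 2) and 52.4% ± 0.17 (SD, n = 2). In shCtrl mESCs it was 39.9% ± 0.29 (SD, n = 2), in shβcat #1 mESCs 44.7% ± 1.1 (SD, n = 2), in shCtrl EBs 63.6% ± 0.52 (SD, n = 2) and in shβcat #1 EBs 65.2% ± 0.29 (SD, n = 2). Ordered by level, no condition's replicates overlapped those of the next, except that OP-mESCs and shβcat #1 mESCs met at 44.1% and 44.0%. The conditions differed by the exact permutation test (p = 9.9e-07 over 16 libraries, 0.0095 within each set of 8).

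**Figure D2:**
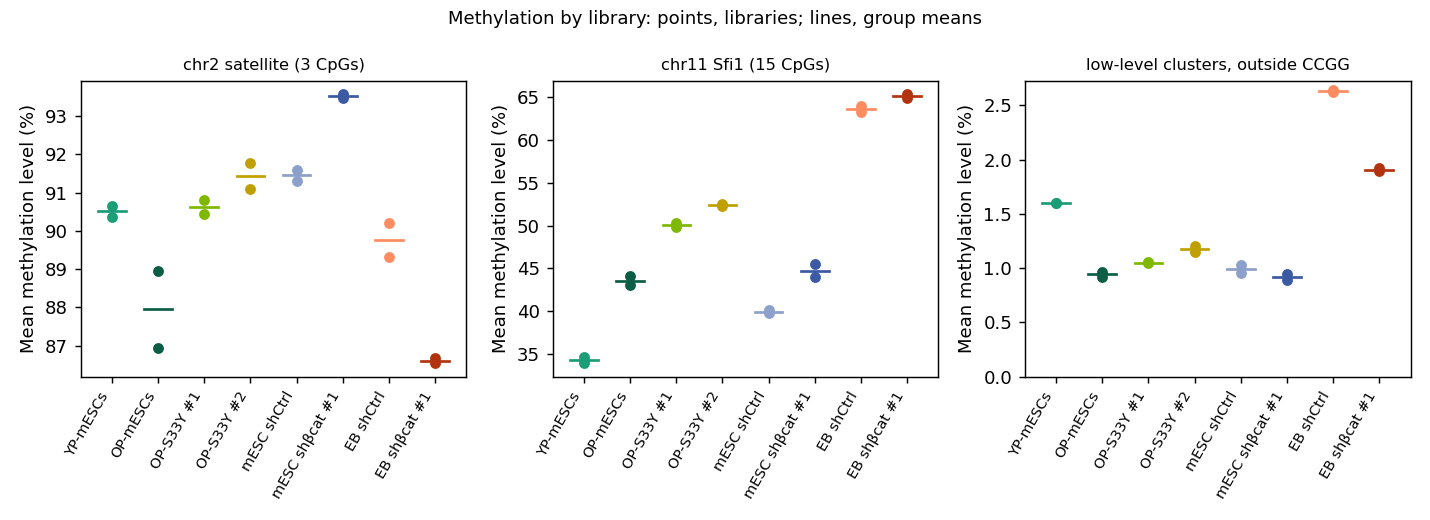
Mean methylation level (percent) per library in the chromosome 2 satellite, the Sfi1 cluster and the CpGs of the low-level clusters outside CCGG, by condition. Points are libraries and lines group means. The Sfi1 cluster rises from 33.9% in the lowest YP-mESC library to 65.4% in the highest EB library, and the axes of the satellite and Sfi1 panels do not start at 0.

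Within the Sfi1 cluster the 15 CpGs differed among themselves. Averaged over all libraries they ranged from 34.9% at chr11:3093388 to 63.5% at chr11:3093460. In YP-mESCs the lowest and highest were the same 2 CpGs, with 23.9% and 47.0%, and in shCtrl EBs chr11:3093388 was again lowest, with 46.2%, while chr11:3093468 was highest, with 73.6%. The mean was lowest in YP-mESCs at 14 of the 15 CpGs and in shCtrl mESCs at 1. The end of the cluster outside the annotated exon is shown, with member CpGs in capitals (mm9, plus strand, chr11:3093467-3093496).
Sfi1 upstream edge: aCGgcaaCGCGaccCGCGcCGgaagctgct

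**Figure D3:**
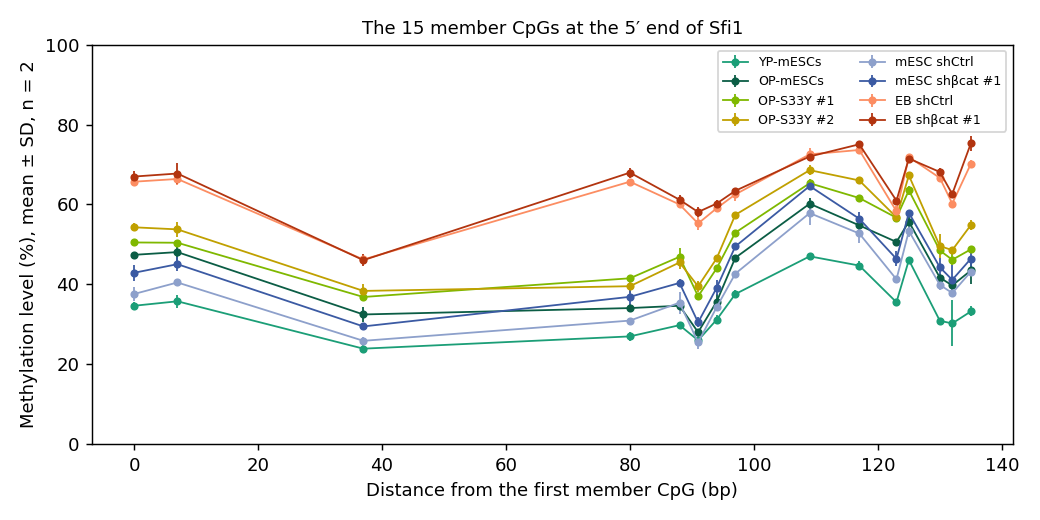
Methylation level (percent, mean ± SD, n = 2) of the 15 member CpGs of the Sfi1 cluster against distance from the first of them, 1 line per condition. The YP-mESC line is lowest at 14 of 15 CpGs and the 2 EB lines lie above all mESC lines.

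The other 8 clusters, 191 CpGs in all, were low. Outside the tetranucleotide CCGG, whose CpGs are described further on, their 158 CpGs averaged 1.60% ± 0.00075 (SD, n = 2) in YP-mESCs, 0.941% ± 0.027 (SD, n = 2) in OP-mESCs, 1.05% ± 0.0099 (SD, n = 2) in OP-S33Y #1 and 1.18% ± 0.042 (SD, n = 2) in OP-S33Y #2. In the transduced cells they averaged 0.996% ± 0.052 (SD, n = 2) in shCtrl mESCs, 0.919% ± 0.036 (SD, n = 2) in shβcat #1 mESCs, 2.63% ± 0.0081 (SD, n = 2) in shCtrl EBs and 1.91% ± 0.015 (SD, n = 2) in shβcat #1 EBs. EBs of both kinds were above every mESC library, and YP-mESCs above the other mESC libraries. The conditions differed by the exact permutation test (p = 3.5e-06 over 16 libraries, 0.0095 within each set of 8). At these levels incomplete conversion matters. Mitochondrial cytosines, which serve as a gauge of it, were 0.242% to 0.449% methylated, with 0.260% and 0.242% in YP-mESCs, 0.374% and 0.361% in OP-mESCs, 0.319% and 0.290% in shCtrl mESCs and 0.289% and 0.283% in shCtrl EBs. In shβcat #1 EBs, where the clusters were also higher than in mESCs, they were 0.338% and 0.373%. The part of conversion in the levels of these clusters was not tested.

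Prolonged culture was addressed by OP-mESCs against YP-mESCs. The Sfi1 cluster was higher in OP-mESCs by 9.31 points, the low-level clusters outside CCGG were lower by 0.656 points (0.589 times the YP-mESC level), and the rDNA locus outside CCGG went from 1.62% to 0.991%. For single CpGs, methylated and unmethylated reads entered a quasi-likelihood fit with moderated overdispersion (limma), limited to pooled levels of 2% to 98%, and a CpG was called at a Benjamini-Hochberg adjusted p under 0.05. In this comparison 12% of all 134709 CpGs tested were called, 0.303% as higher and 11.7% as lower, and 6.59% with a difference over 25 points. Of the 29 members that passed the filter on level, 14 rose and 9 fell, none by over 25 points. The 14 that rose were all of the Sfi1 cluster, for example chr11:3093460 by 13.2 points (60.2% against 47.0%, adjusted p = 8.3e-08). The satellite CpG chr2:98506429 fell by 3.46 points (adjusted p = 4.6e-08). A CpG near 2% passes the filter more readily when 1 group is high, which fixes in part the direction of the rest, and only 11 of 154 rDNA CpGs passed. The low-level clusters were therefore counted with no filter on level, a count by locus added after seeing the data. Without the filter, 80 of 154 rDNA CpGs fell and 0 rose, and 109 of 209 members fell and 14 rose. Of 327844 CpGs 3.13% were called, 3.05% as lower. The comparison class fell by 3.42 points on average. Without OP-mESC replicate 2, the satellite difference was -1.55 in place of -2.56 points, and the Sfi1 difference 8.77 points. With limma on arcsine square roots the count of 23 calls was 1, where 0.262% of all CpGs were called. Leaving out any 1 library left 1 library in a group. It lowered both the member calls and the share of all CpGs called, most of all without YP-mESC replicate 1.

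Stable β-catenin was addressed by the S33Y clones against YP-mESCs. The Sfi1 cluster was higher by 15.8 points in clone #1 and by 18.2 points in clone #2, and 15 of its 15 CpGs rose in each clone. Of all CpGs tested, 2.01% were called in clone #1, 0.869% as higher, 1.14% as lower and 0.936% by over 25 points. In clone #2 3.8% were called, 0.576% as higher, 3.22% as lower and 2.36% by over 25 points. Of the members tested, 16 of 37 rose and 7 fell in clone #1, and 17 of 48 rose and 7 fell in clone #2, none by over 25 points. The rDNA locus outside CCGG was 1.04% ± 0.0067 (SD, n = 2) in clone #1 and 1.21% ± 0.038 (SD, n = 2) in clone #2, against 1.62% ± 0.0047 (SD, n = 2) in YP-mESCs. The comparisons of OP-mESCs and of both clones share the YP-mESC libraries. Without the filter, 32 of 154 rDNA CpGs fell in clone #1 and 20 of 154 in clone #2. Over all members, 16 rose and 34 fell in clone #1, and 17 rose and 23 fell in clone #2, where 0.442% and 1.02% of all CpGs were called, 0.251% and 0.885% as lower. Leaving out either YP-mESC library left 1 library in that group. It lowered both the member calls and the share of all CpGs called in each clone, and no lower call among the members remained.

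Silencing of β-catenin in mESCs gave few calls. The Sfi1 cluster was 4.81 points higher in shβcat #1 than in shCtrl, with replicates that did not overlap. In the moderated fit (limma) 0 of its 15 CpGs were called and 11 were higher at an unadjusted p under 0.05. These 15 CpGs lie within 137 bp, so they are not separate observations. The share of all CpGs at an unadjusted p under 0.05 is not given, here or for EBs below. Of all CpGs tested, 0.0638% were called, 0.0518% as higher, 0.012% as lower and 0.0584% by over 25 points. Of 28 members tested, 1 rose, the satellite CpG chr2:98506660, from 92.5% to 94.5% (adjusted p = 0.016). This call was lost without any 1 of the 4 libraries, where no CpG of all those tested was called either. It was also lost with the replicate number as a block (0 calls, against 0.191% of all CpGs). The rDNA locus outside CCGG was 0.937% in shCtrl and 0.893% in shβcat #1, and its replicates overlapped.

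In EBs, silencing went with lower levels at the rDNA and at some other low-level clusters. The rDNA locus outside CCGG was 2.67% ± 0.029 (SD, n = 2) in shCtrl EBs and 1.84% ± 0.0016 (SD, n = 2) in shβcat #1 EBs, a ratio of 0.689. Over all their CpGs, the clusters at chr17:36368236 (ratio 0.579) and chr11:108873012 (0.712) were also lower, without overlap of replicates. Replicates overlapped in the chromosome 5 cluster (0.944), and the chromosome 16 cluster was higher (1.09). Of all CpGs tested, 0.439% were called, 0.286% as higher, 0.153% as lower and 0.164% by over 25 points. Of 132 members tested, 45 fell and 0 were called higher, while 2 were higher at an unadjusted p under 0.05. Without the filter on level, 43 of 209 fell, 37 of them among the 154 of the rDNA locus, where 0.101% of all CpGs were called and 0.0378% as lower. The 3 satellite CpGs fell in both settings, such as chr2:98506660 from 89.8% to 86.6% (moderated fit, adjusted p = 4.4e-34). That p owes its size to the many reads at this CpG, and each group had only 2 libraries. The satellite means were 90.2% and 89.3% in the shCtrl EB replicates, and 86.7% and 86.5% in those of shβcat #1. Of the 15 Sfi1 CpGs 0 were called, and 1 was higher at an unadjusted p under 0.05. With limma on arcsine square roots the 45 calls were 2, where 0.00111% of all CpGs were called. Leaving out any 1 library left 1 library in a group. It lowered both the member calls and the share of all CpGs called. Each member call that remained in these settings was lower.

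Differentiation was addressed by shCtrl EBs against shCtrl mESCs, and it moved the most members. Of 99 tested, 92 rose and 2 fell, where 22.4% of all CpGs were called, 21.6% as higher, 0.86% as lower and 13.1% by over 25 points. Without the filter on level, 179 of 209 rose and 2 fell, where 9.57% of all CpGs were called, 9.34% as higher. Of the 154 rDNA CpGs 142 then rose, and the rDNA locus outside CCGG was 2.85 times as high, at 2.67% against 0.937%. The Sfi1 cluster was 23.7 points higher, 15 of its 15 CpGs rose, and 6 of them rose by over 25 points, for example chr11:3093486 from 43.2% to 70.2% (adjusted p = 1e-18). The 2 that fell were the satellite CpGs chr2:98506419 and chr2:98506660. The comparison class was 4.42 points higher. Leaving out either shCtrl EB library left 1 library in that group, and fewer members passed the filter and were called. The share of all CpGs called was also smaller.

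How many members were called depended on their depth. With every CpG thinned to 30 reads per library, 10 of 96 members tested were called in EBs against mESCs, where 22.3% of all CpGs were. In the same setting 0 of 62 were called in OP-mESCs against YP-mESCs, where 7.95% of all CpGs were. In clone #1 0 of 70 were called (0.166% of all CpGs) and in clone #2 1 of 71 (1.23%). With β-catenin silenced 0 of 48 were called in mESCs (0.00473%) and 0 of 113 in EBs (0.00745%). The shares of members called above are thus shares at their full depth, where differences down to 0.771 points were called. Replicates of the members differed by 0.395 points on average and those of the comparison class by 3.69. Among CpGs under 5%, the values were 0.253 and 0.991 points. These are values at full depth. With both sets thinned to 10 reads, replicates differed by 3.72 points in the members and 5.80 in the comparison class. Within a range of levels the order was then the other way. It was 2.36 against 1.23 points under 5%, and 18.0 against 14.9 points from 20% to 80%. Levels were not matched within these ranges, and at 10 reads sampling alone gives a difference that depends on the level. Whether replicates of the members differed more than those of the comparison class at equal level was therefore not tested.

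A separate pattern set the transduced libraries apart from the untransduced ones. In the rDNA locus, 9 CpGs were at 0.647% to 2.07% on average in the 8 untransduced libraries and at 13.5% to 48.7% in the 8 transduced ones. The highest was chr17:39981797, with 1.77% and 48.7%, and its lowest transduced library had 46.9%. All 9 were among the 38 members in CCGG, the site that MspI, a restriction enzyme often used for RRBS, cuts. The enzyme used here is not given in the sources used here. Of the 33 CCGG members under 5% in the untransduced libraries, 9 were over 10 points higher in the transduced ones, and 0 of the 158 such members outside CCGG. The share of 27.3% was close to that of all CCGG CpGs, 28.6% of 47992, against 2.36% of the other CpGs, so the pattern is not one of these clusters alone.

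Sites that rose and sites that did not are shown with the CCGG in capitals (mm9, plus strand, 30 bases, the CpG at the fifteenth base). Of the CCGG members of the locus, the first 4 had the largest differences between library sets, and the last 3 had the lowest.
chr17:39981797: cttgccgtcgtcgCCGGccctcgttctgct
chr17:39981711: tcgcgtgccctgaCCGGtccgacgcccgag
chr17:39981759: tgaggacccccttCCGGgaggggcccgttt
chr17:39983067: tcggagagctgtcCCGGggcaacgctcggg
chr17:39984572: cgggaaacctcacCCGGcCCGGacacggac
chr17:39984817: tgcccttagatgtCCGGggctgcacgcgcg
chr17:39982275: ccgcgcgcgtgtcCCGGtgtggcggtgggg
At several sites only 1 strand carried the difference. At chr17:39981711, 97.0% of reverse-strand reads were methylated in the transduced libraries (15839 reads) and 0.189% in the untransduced ones, while the forward strand had 1.58% and 1.26%. At chr17:39983067 the forward strand had 46.7% and 1.22%, and the reverse strand 2.33% and 1.57%. At chr17:39981797 both strands were higher, 62.9% forward and 42.3% reverse. The CpGs read also differed: 26 CpGs of the locus had 300 or more reads in every transduced library and fewer than 100 in every untransduced one, and 0 the reverse. The submitters name a pair of library kits without saying which library used which, so kit, transduction and experiment cannot be told apart. The part of the library set in the CCGG levels was not tested, and the 6 comparisons above all lie within a set.

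**Figure D4:**
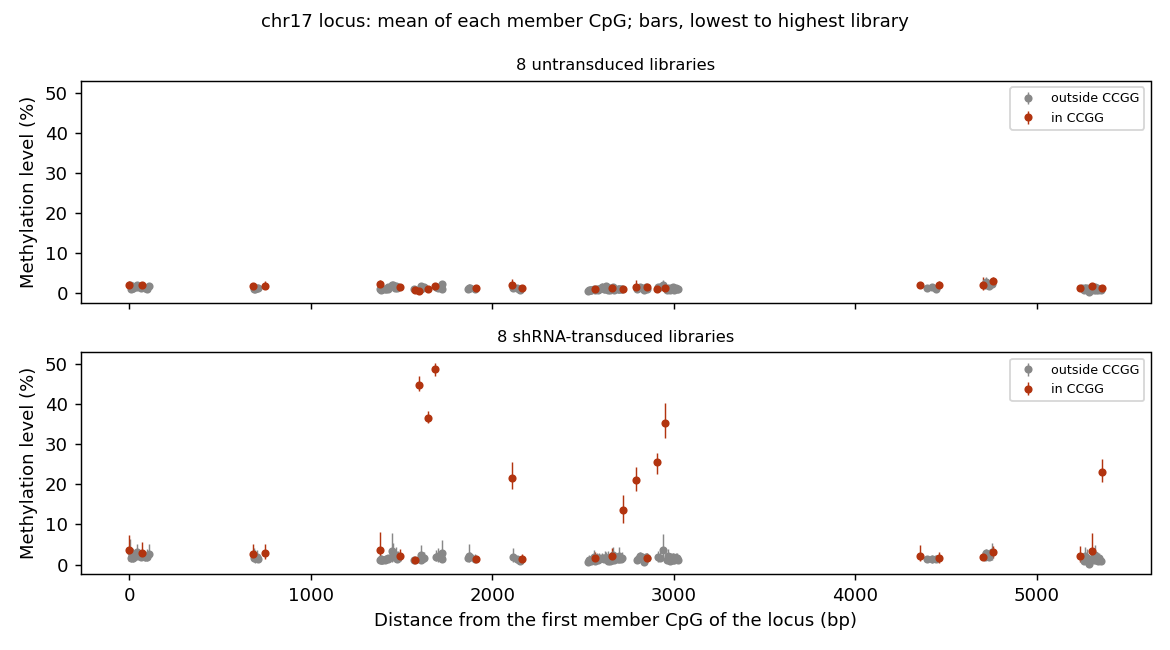
Mean level (percent) of each member CpG of the rDNA locus against distance from the first, in the 8 untransduced and the 8 transduced libraries, with CCGG CpGs in red and bars from the lowest to the highest library. In the transduced panel 9 CCGG CpGs stand at 13.5% to 48.7%, and all CpGs outside CCGG stay low in both.

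**Figure D5:**
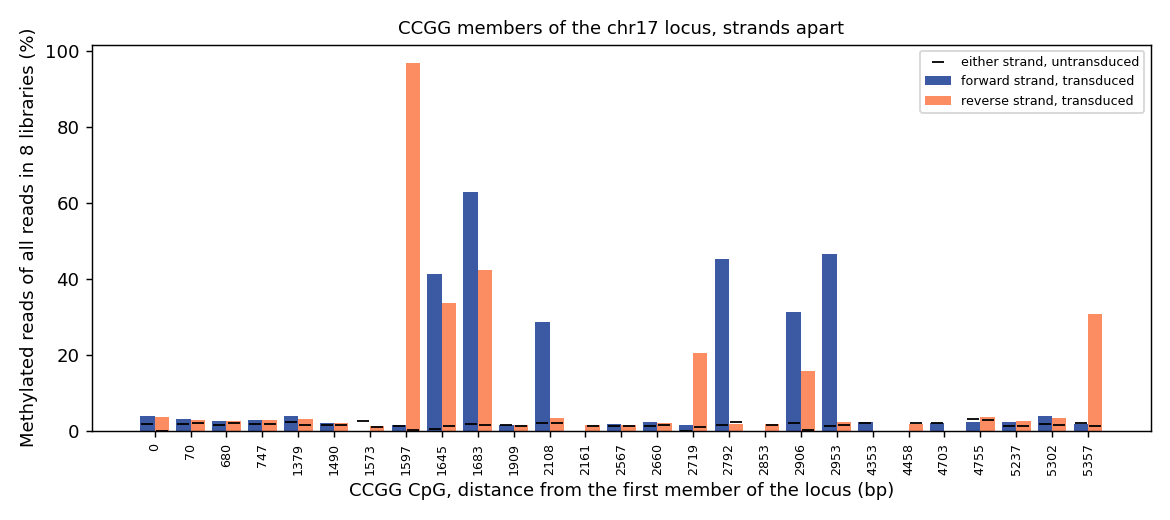
Percentage of methylated reads at the 27 CCGG members of the rDNA locus, pooled over the 8 transduced libraries, with forward and reverse strands as bars and the untransduced value of the same strand as a dash. A strand without a bar had no reads in the transduced libraries' files. The reverse bar of chr17:39981711, at 97.0%, is the tallest.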

How the data were processed

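The authors sequenced RRBS libraries of 16 samples and processed them, per the labels, with CASAVA 1.8.2, Trim Galore 0.2.8 and Bismark 0.7.9 against mm9. How duplicates were treated is not given in the sources used here. The deposited files give, per cytosine with 10 or more reads, the coverage as a count of reads and the percent methylated and unmethylated. Methylated reads were recovered as coverage times percent, and the strands of a CpG were summed. A quasi-binomial F test per CpG compared groups, with overdispersion moderated by a trend on log depth (limma 3.58.1), the prior fitted on CpGs with 5 or more expected reads of each kind in every library. Benjamini-Hochberg adjustment covered all CpGs with 10 or more reads in all 16 files and a pooled level of 2% to 98%. Mean levels over the 8 conditions were tested by exact permutation over pairings of libraries, and 2 libraries against 2 cannot give an exact p below 0.33, so no such p is printed per comparison. The clusters, and the genes at them, were named by size, depth, level and largest change. The members and lists were chosen with earlier results of these data known. On simulated reads, in which the changed CpGs were shifted by 30 points, the test recovered the changed members. It recovered as many CpGs as a test given the true overdispersion, but only a minority at ordinary depth. Recovery of smaller shifts, such as the difference of 0.771 points called in shCtrl EBs against shCtrl mESCs, was not tested. With all reads thinned to 30, equal depths defeat the estimate of the prior, so that setting took the prior of the unthinned fit, a choice made after seeing the data. Replicate numbers were not treated as pairs. Gencode vM1 gave the genes. Intervals for counting error are not printed, and PCR copies are not independent molecules. Very small p-values of the quasi-binomial F test at deep CpGs owe their size to many reads, with only 2 libraries per group. Python 3.11.15, R 4.3.3 and scipy 1.17.1 were used.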

Additional observations from a re-analysis of the deposited data

Results flagged for a closer look

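In 2 clusters the difference between shβcat #1 and shCtrl had opposite signs in mESCs and EBs, every replicate of one group lying above every replicate of the other. The chromosome 2 satellite cluster was higher by 2.07 points in shβcat #1 than in shCtrl mESCs and differed by -3.15 points in EBs. The chromosome 16 cluster in Zc3h7a differed by -0.29 points in mESCs and was higher by 0.26 points in EBs. No single CpG of the chromosome 16 cluster was called in either comparison, and the 1 satellite call in mESCs was lost without any 1 library. The difference between mESCs and EBs was not tested.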

How the results depend on the processing

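Each count of called members was recomputed under other settings, in the order of the OP-mESC, S33Y clone #1 and S33Y clone #2 comparisons with YP-mESCs, then shβcat #1 against shCtrl in mESCs and in EBs, and shCtrl EBs against shCtrl mESCs, from 23, 23, 24, 1, 45 and 94. The shares of all CpGs called, in the same order, were 12%, 2.01%, 3.8%, 0.0638%, 0.439% and 22.4% as reported above. With limma on arcsine square roots the counts were 1, 13, 14, 0, 2 and 88. The shares of all CpGs were then 0.262%, 0.0181%, 0.0563%, 0%, 0.00111% and 13.3%. Thinned to 30 reads the counts were 0, 0, 1, 0, 0 and 10 (7.95%, 0.166%, 1.23%, 0.00473%, 0.00745% and 22.3% of all CpGs). Without the filter on level they were 123, 50, 40, 2, 43 and 181 (3.13%, 0.442%, 1.02%, 0.0153%, 0.101% and 9.57% of all CpGs). With 1 mean per cluster, 6, 1, 2, 0, 4 and 10 of 10 clusters were called (7.08%, 0.0173%, 0.682%, 0%, 0.248% and 21.3% of all clusters). In settings added after seeing the data, CpGs outside CCGG alone gave 18, 17, 22, 2, 43 and 66. The shares of all such CpGs were 13.4%, 3.4%, 4.83%, 0.148%, 1.94% and 25.9%. Without the filter on level as well, the counts were 99, 42, 36, 1, 40 and 149. The shares were then 2.35%, 0.511%, 0.847%, 0.00839%, 0.327% and 7.47%. With 1 shared overdispersion, 7 members were called for shβcat #1 in mESCs (0.294% of all CpGs). Strands kept apart gave 2 in mESCs (0.0336%) and 29 in EBs (0.0311%). The use of 10 reads in only the 4 libraries compared gave 2 in mESCs (0.0243%). Without 1 replicate the counts ranged from 1 to 19, 15 to 16, 10 to 20, 0 to 0, 3 to 19 and 46 to 110. The lowest came without YP-mESC replicate 1 for OP-mESCs (5 without YP-mESC replicate 2, 12 without OP-mESC replicate 2) and for OP-S33Y #2, where YP-mESC replicate 2 gave 12. For EBs they came without shβcat #1 replicate 2 (the others gave 9, 15 and 19) and without shCtrl replicate 2. Leaving out a library also lowered the prior degrees of freedom. No source says that the replicate numbers pair libraries. Deviations of same-numbered libraries correlated by -0.024 to 0.026 over the comparison class and by -0.239 to 0.632 over the members, with the highest in the EB comparison of shβcat #1 and shCtrl. With the replicate number as a block the counts were 18, 21, 23, 0, 62 and 88, and with crossed numbers 20 for clone #1, where the members gave the lowest value. The shares of all CpGs were 7.08%, 1.99%, 4.4%, 0.191%, 1.18% and 12.2%, and 2.46% with crossed numbers. Both the mean level of the members and its gap to the comparison class differed between conditions at every other setting, though the size of the gap was -12.4 points outside CCGG, -12.3 over clusters and -6.60 over clusters chained at up to 2000 bp. When weighted by reads, neither passed the threshold (range 27.9 points, exact permutation p = 0.51, and gap -6.86 points, exact permutation p = 0.67). The highly methylated chromosome 2 cluster held 0.0156% to 2.05% of a library's autosomal reads, and all members 2.42% to 6.18%. The cause was not tested. Without 1 replicate the range stayed at 4.34 to 4.42 points and the gap at -21.1 to -20.7.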
